A study of Mus musculus with 6 samples.

Results

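Natural killer (NK) cells and CD8 T cells kill target cells by releasing granules, and the transcripts described here are those of 10 genes of that machinery in mouse spleen. They are the granzymes Gzma, Gzmb, Gzmk and Gzmm, the pore-forming protein gene Prf1, the granule membrane protein gene Nkg7, the cathepsin W gene Ctsw, the NK receptor gene Ncr1 and the T-box transcription factor genes Eomes and Tbx21. A probe set was taken where the platform annotation gave it exactly 1 gene symbol and that symbol was among the 10, which left 12 of 45037 probe sets tested on the array and all 10 genes. Eomes and Prf1 had 2 probe sets each, called brighter and dimmer by their mean signal, and the other genes had 1. Spleens came from adult F1 females of 2 crosses, (AKR/J x FVB/NJ)F1 with 3 spleens and (DBA/2J x FVB/NJ)F1 with 3 spleens, each hybridised to an Affymetrix array of its own. All 6 animals thus carry an FVB/NJ genome copy beside a copy from AKR/J or from DBA/2J, and the series was made to find basal differences in expression between these genotypes. The labels name 1 spleen per array but not litters or housing, so that p-values measure the spread between these samples. Whole spleen was measured, and fewer cells of a type and less RNA per cell cannot be told apart.

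A cytotoxic lymphocyte stores perforin and granzymes in secretory granules and releases them at its contact with a target, where perforin lets the proteases enter. Granzyme B cleaves after aspartate and starts apoptosis through caspases, whereas granzymes A and K cleave after basic residues. Eomes and T-bet, the product of Tbx21, are related DNA-binding factors that NK cells need to mature and that act on effector genes in NK and CD8 T cells. In the spleen these genes mark NK cells and a part of the CD8 T cells, and Ncr1, which encodes the activating receptor NKp46, is the most NK-restricted of the 10.

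All values are log2 signals as deposited, and each difference is AKR/J F1 minus DBA/2J F1, positive where AKR/J F1 spleens had more signal. Array medians lay between 5.04 and 5.10 and single values between 1.81 and 14.56. The B cell component Cd79a, at 12.00 to 12.09 in AKR/J F1 spleens and 11.57 to 11.79 in DBA/2J F1 spleens, was bright in every spleen. Genes of pancreatic acinar cells were bright in 5 arrays, with a mean over 8 genes of 13.92 to 13.97 in AKR/J F1 spleens and of 13.42 and 13.77 in DBA/2J F1 replicates 1 and 2, against 6.37 in DBA/2J F1 replicate 3. That spleen therefore stands apart from the 5 with acinar signal, and results for Nkg7, Ctsw, Eomes and Tbx21 are also given without it.

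Nkg7, Ctsw and Eomes were higher in AKR/J F1 spleens, by 1.63-, 1.40- and 1.43-fold, whereas the granzyme gene Gzma and the receptor gene Ncr1 had differences close to 0. In limma, 3 of the 12 probe sets passed an adjusted p of 0.05, all 3 higher in AKR/J F1 spleens, and 9 did not pass. Over all 45037 probe sets 10.4% passed, 5.14% being higher in AKR/J F1 spleens and 5.26% lower. Of the 12 differences 10 were positive and 2 negative, with a median of 0.37, beside a median of -0.02 over all probe sets. The 3 AKR/J F1 spleens all lay above the 3 DBA/2J F1 spleens in 5 of the 12, where 17.7% of all probe sets did so, and all below them in 1, where 18.3% did so; non-overlap in either direction held for 36.1% of all probe sets.

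**Figure D1:**
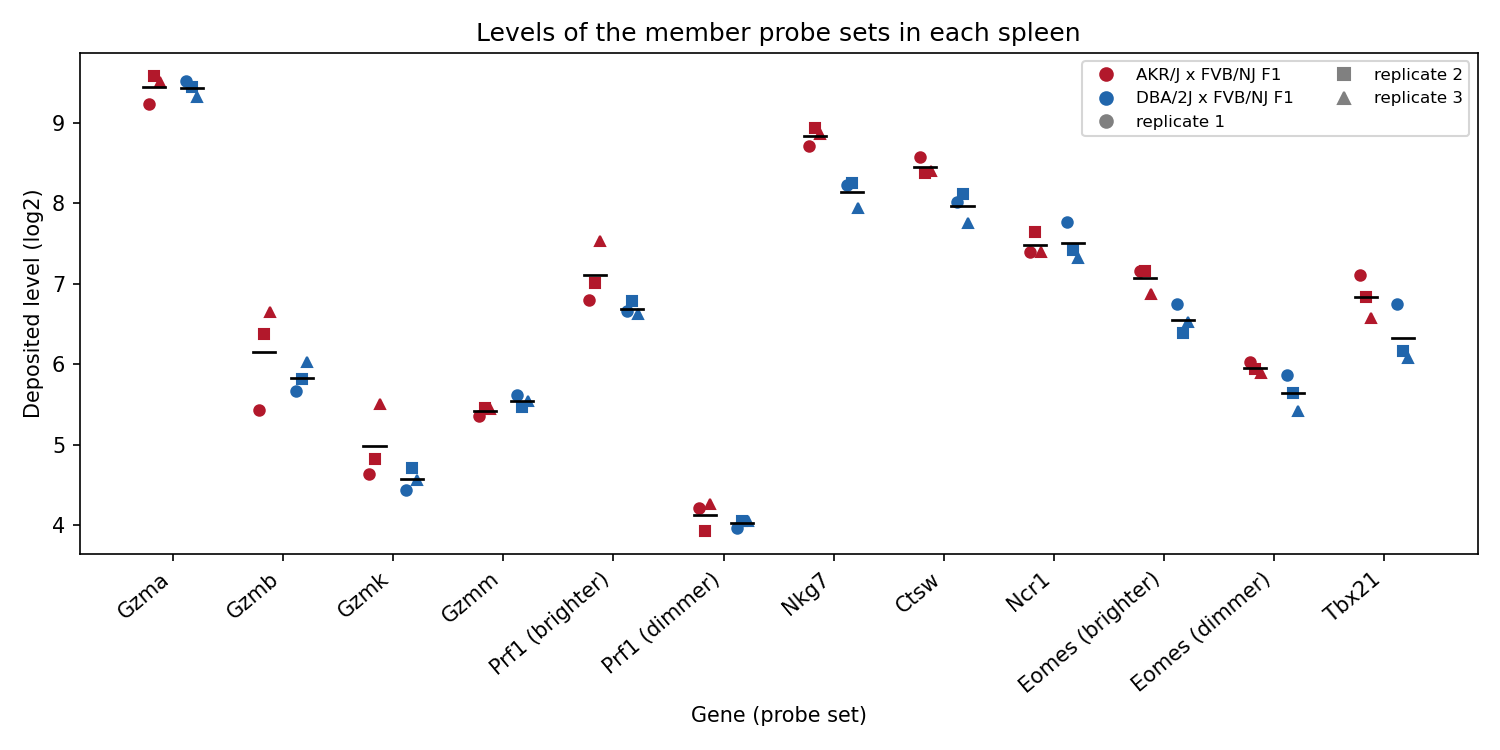
Deposited log2 level of the 12 probe sets (x axis) in each of the 6 spleens, AKR/J F1 left (red) and DBA/2J F1 right (blue) of each gene. Marker shapes are replicates and black lines are means of 3; the crosses separate fully for Nkg7, Ctsw, both Eomes probe sets and the brighter Prf1 probe set, with the AKR/J F1 group higher, and for Gzmm, with it lower.

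Nkg7 encodes a membrane protein of cytotoxic granules that takes part in their release. Its probe set (1450753_at) read 8.71, 8.94 and 8.86 in AKR/J F1 spleens, against 8.22, 8.24 and 7.95 in DBA/2J F1 spleens. The lowest AKR/J F1 spleen was above the highest DBA/2J F1 spleen. The difference was 0.70 ± 0.11 (SE; 95% interval 0.45 to 0.95), with a limma adjusted p of 0.0117. Nkg7 was the only member called whichever spleen was left out, with differences of 0.60 to 0.76 and adjusted p of 0.0128 to 0.0465. Without DBA/2J F1 replicate 3 it was 0.60 (adjusted p = 0.0327).

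Ctsw encodes cathepsin W, a papain-family protease found mainly in NK and CD8 T cells. Its probe set (1422632_at) read 8.58, 8.37 and 8.39 in AKR/J F1 spleens, against 8.01, 8.12 and 7.76 in DBA/2J F1 spleens. The crosses did not overlap. The difference was 0.48 ± 0.11 (SE), with a limma adjusted p of 0.0362. With any 1 spleen left out the difference stayed positive, at 0.38 to 0.56, and the adjusted p was 0.0501 to 0.109, so that the call needed all 6 arrays. Without DBA/2J F1 replicate 3 the difference was 0.38 (limma adjusted p = 0.0899).

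Perforin forms pores in the target membrane. The brighter Prf1 probe set (1451862_a_at) read 6.80, 7.01 and 7.53 in AKR/J F1 spleens, against 6.65, 6.78 and 6.62 in DBA/2J F1 spleens. The crosses did not overlap, but the lowest AKR/J F1 spleen was only just above the highest DBA/2J F1 spleen. The difference of 0.43 ± 0.17 (SE) did not pass (limma adjusted p = 0.134), and it was 0.22 without AKR/J F1 replicate 3, the highest spleen. The dimmer Prf1 probe set (1450335_at) read 4.21, 3.92 and 4.26 in AKR/J F1 spleens, against 3.97, 4.05 and 4.05 in DBA/2J F1 spleens, which overlap. Its level was below the 40th percentile of all probe sets (4.33), and its difference of 0.11 ± 0.10 did not pass.

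Among the granzymes 0 of 4 passed in limma, and 0 of 4 had an unadjusted p under 0.05, beside 30.7% of all probe sets. Gzma (1417898_a_at) read 9.23, 9.58 and 9.51 in AKR/J F1 spleens, against 9.52, 9.44 and 9.32 in DBA/2J F1 spleens. The spleens of the crosses are interleaved, and the difference of 0.01 has a 95% interval of -0.24 to 0.27, that is 0.846- to 1.21-fold. After quantile normalization it was -0.05, so that its sign is not fixed.

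Gzmb (1419060_at) read 5.43, 6.37 and 6.65 in AKR/J F1 spleens, against 5.66, 5.82 and 6.02 in DBA/2J F1 spleens. The AKR/J F1 group held both the lowest and the highest spleens, with an SD of 0.64, against 0.18 in DBA/2J F1 spleens. The difference was 0.32 ± 0.28 (SE; limma adjusted p = 0.460). It was 0.68 (adjusted p = 0.0572) without AKR/J F1 replicate 1 and 0.07 (adjusted p = 0.890) without replicate 3 of that cross, so that single spleens set its size.

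Gzmk (1422280_at), which lies close to Gzma in the genome, read 4.63, 4.82 and 5.50 in AKR/J F1 spleens, against 4.44, 4.71 and 4.56 in DBA/2J F1 spleens. AKR/J F1 replicate 3 stood above all others, and the difference of 0.42 ± 0.20 (SE; limma adjusted p = 0.203) was 0.16 without it. Gzmm (1449501_a_at), a granzyme that cleaves after methionine and leucine, read 5.35, 5.45 and 5.44 in AKR/J F1 spleens, against 5.61, 5.46 and 5.54 in DBA/2J F1 spleens. Here every AKR/J F1 spleen was below every DBA/2J F1 spleen, by a small margin, and the difference of -0.12 ± 0.08 (SE) did not pass (limma adjusted p = 0.327).

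Ncr1 (1422089_at) read 7.40, 7.64 and 7.40 in AKR/J F1 spleens, against 7.77, 7.41 and 7.32 in DBA/2J F1 spleens. The highest and the lowest spleens both belonged to the DBA/2J F1 group. The difference was -0.02 ± 0.13 (SE; limma adjusted p = 0.935), with a 95% interval of 0.800- to 1.22-fold, and it was 0.01 after median centring.

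Eomes drives NK cell maturation and memory CD8 T cells. Its brighter probe set (1435172_at) read 7.16, 7.16 and 6.87 in AKR/J F1 spleens, against 6.74, 6.38 and 6.52 in DBA/2J F1 spleens. The crosses did not overlap, and the difference was 0.51 ± 0.12 (SE; limma adjusted p = 0.0379). The dimmer Eomes probe set (1426001_at) read 6.02, 5.94 and 5.89 in AKR/J F1 spleens, against 5.87, 5.64 and 5.42 in DBA/2J F1 spleens. It separated the crosses in the same direction, narrowly, with a difference of 0.31 ± 0.12 that did not pass (adjusted p = 0.121). With 1 spleen left out, the brighter probe set passed only without DBA/2J F1 replicate 1 (0.61, adjusted p = 0.0219). The dimmer probe set also passed only there. In the other 5 such fits the difference of the brighter one was 0.43 to 0.61 and its adjusted p 0.0520 to 0.113. Without DBA/2J F1 replicate 3 the brighter one differed by 0.50 (limma adjusted p = 0.0962).

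Tbx21 (1449361_at) encodes T-bet, which also directs type 1 helper T cells. It read 7.11, 6.83 and 6.58 in AKR/J F1 spleens, against 6.75, 6.17 and 6.07 in DBA/2J F1 spleens. DBA/2J F1 replicate 1 lay above AKR/J F1 replicate 3, so that the crosses overlapped. The difference of 0.51 ± 0.20 (SE) did not pass (limma adjusted p = 0.122). It was 0.72 and passed (adjusted p = 0.0283) without DBA/2J F1 replicate 1, and was 0.38 (adjusted p = 0.283) without replicate 3 of that cross.

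**Figure D2:**
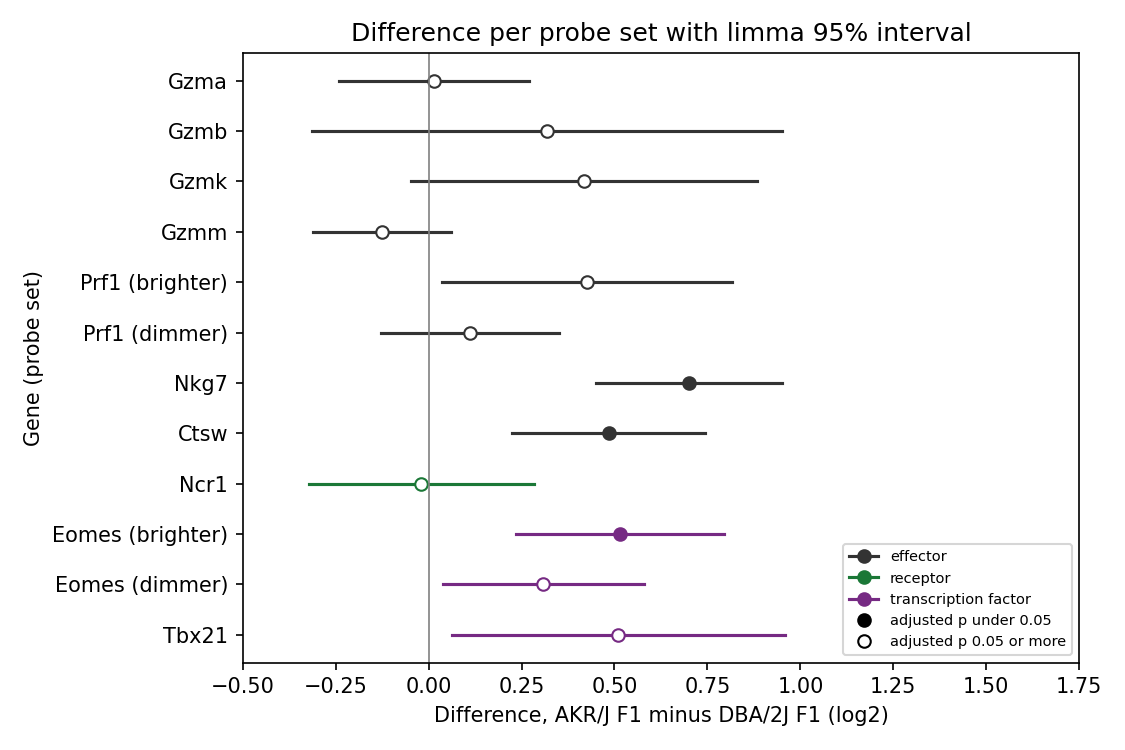
Difference of each probe set, AKR/J F1 minus DBA/2J F1 in log2 units (x axis), with limma's 95% interval; filled points have an adjusted p under 0.05 and colours give the class of gene. Nkg7 (0.70), Ctsw (0.48) and the brighter Eomes probe set (0.51) are filled, and the points of Gzma (0.01) and Ncr1 (-0.02) lie at 0.

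**Figure D3:**
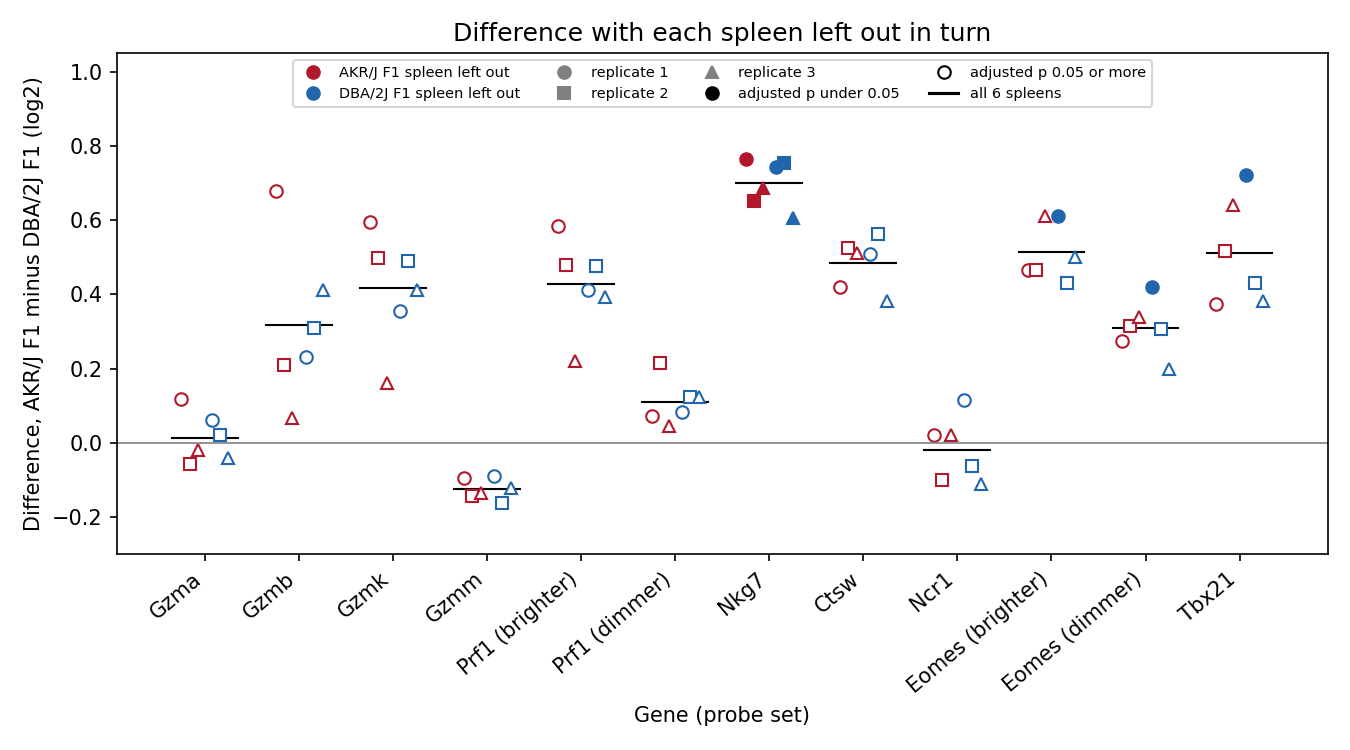
The same differences (y axis, log2) refitted with each of the 6 spleens left out: red for a spleen of the AKR/J F1 group, blue for one of the DBA/2J F1 group, marker shapes for the replicate left out, filled where the adjusted p is under 0.05, and a black line for all 6 spleens. All 6 points are filled for Nkg7 (0.60 to 0.76), 0 are filled for Ctsw, and Gzmb ranges from 0.07 to 0.68.

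The effector genes were set against the 2 transcription factors in each spleen. Every gene was centred on its own mean over the 6 spleens, and the means of the 7 effector genes (the granzymes, Prf1, Nkg7 and Ctsw) and of Eomes and Tbx21 were taken, with the brighter probe set where there were 2. The transcription factor mean was 0.44, 0.30 and 0.03 in AKR/J F1 spleens, against 0.05, -0.42 and -0.40 in DBA/2J F1 spleens. The effector mean was -0.08, 0.18 and 0.37 in AKR/J F1 spleens, against -0.17, -0.10 and -0.22 in DBA/2J F1 spleens. In the AKR/J F1 group, replicate 1 was highest for the factors and lowest for the effectors, and replicate 3 was the reverse. The factors differed between crosses by 0.51 and the effectors by 0.32. Effector minus factor averaged -0.10 ± 0.43 in AKR/J F1 spleens and 0.10 ± 0.28 in DBA/2J F1 spleens (SD, n = 3 each), a difference of -0.19 that is within the spread of the spleens. It was 0.02 without AKR/J F1 replicate 1, so that its sign rested on that spleen. Without DBA/2J F1 replicate 3 this difference was -0.15. No test was made of these means, since the genes were chosen with results known.

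**Figure D4:**
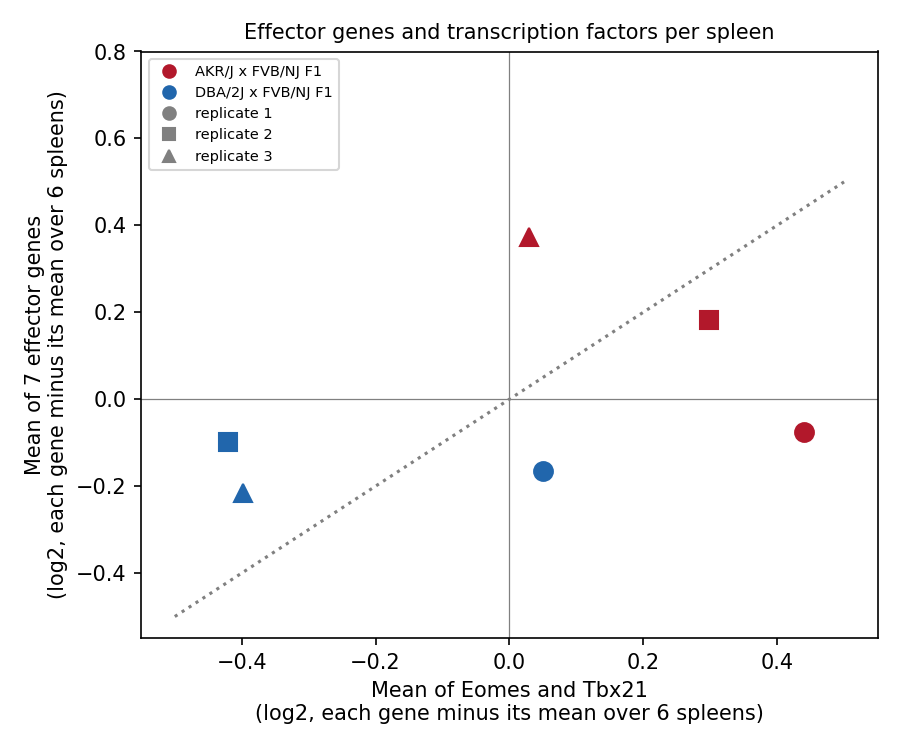
Mean of the 7 effector genes (y axis) against mean of Eomes and Tbx21 (x axis) in each spleen, both in log2 units after each gene was centred on its mean over 6 spleens; the dotted line marks equal values. AKR/J F1 spleens (red) lie further right, at 0.03 to 0.44, than DBA/2J F1 spleens (blue), at -0.42 to 0.05, apart from an overlap of AKR/J F1 replicate 3 with DBA/2J F1 replicate 1.

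Single log2 ratios within a spleen gave 16 comparisons, the 7 effector genes and Ncr1 each against Eomes and Tbx21. With 3 spleens against 3 a two-sided exact permutation test cannot go below p = 0.1, so that 0.05 was out of reach. Relative to Eomes, Gzma differed between crosses by -0.50, Gzmm by -0.64 and Ncr1 by -0.53, and the crosses did not overlap in any of these 3 ratios (exact permutation p = 0.1, adjusted p = 0.32 over the 16). Relative to Tbx21, Gzmm by -0.64 and Ncr1 by -0.53 also separated the crosses (exact permutation p = 0.1, adjusted p = 0.32), and Gzma by -0.50 did not (exact permutation p = 0.2, adjusted p = 0.533). Eomes and Tbx21 each differed by 0.51, against 0.01 for Gzma, -0.02 for Ncr1 and -0.12 for Gzmm. These ratios thus largely restate the differences of the factors. The share of all genes whose ratio to a factor separates the crosses was not computed. The ratio of Nkg7 to Eomes differed by 0.19 (exact permutation p = 0.4) and that of Ctsw to Eomes by -0.03 (exact permutation p = 0.8). At this number of spleens the test can neither show nor exclude a difference between an effector gene and a factor.

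The windows around the transcription starts of these genes were searched for letters bound by 3 factor families, because T-box, RUNX and ETS proteins are known regulators of cytotoxic genes. RefSeq windows of build GRCm38.p6 run from 250 bases before to 50 after a start, and 9 of the 10 genes had at least 1, with 11 windows in all. Ctsw was not matched. The T-box letters GGTGTGA were found, on either strand, in 3 of the 11 windows (Nkg7, Gzmk and Gzmm), and in 3.98% of all 32851 windows. The RUNX letters TGTGGT were found in 7 of the 11, from 6 genes (Gzma, Gzmb, Gzmm, Ncr1, Nkg7 and Prf1), and in 16.8% of all windows. The ETS letters GGAAGT were found in 3 of the 11 (Gzmk, Prf1 and Tbx21), and in 23.8% of all windows. Gzmm and Ncr1 had more than 1 window. Those of Ncr1 overlap, and the T-box and RUNX letters of Gzmm lie in different windows. None of the 3 motifs overlapped another in the windows printed here.
A few of the windows are printed, 5′ to 3′ on the strand of the gene with every match in capitals (a match on the opposite strand appears as its reverse complement): Nkg7 as the gene with the firmest call, Gzmk as a granzyme with the T-box letters and no call, Gzma as the gene with a difference close to 0, and Eomes, called and with no match.
Nkg7 chr7:43436888-43437187 (+ strand): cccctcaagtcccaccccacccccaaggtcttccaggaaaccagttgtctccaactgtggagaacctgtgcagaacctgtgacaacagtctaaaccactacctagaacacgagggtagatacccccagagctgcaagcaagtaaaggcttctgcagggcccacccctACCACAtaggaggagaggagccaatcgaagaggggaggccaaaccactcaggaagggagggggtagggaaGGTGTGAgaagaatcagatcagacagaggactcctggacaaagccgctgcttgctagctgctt
Gzmk chr13:113180916-113181215 (- strand): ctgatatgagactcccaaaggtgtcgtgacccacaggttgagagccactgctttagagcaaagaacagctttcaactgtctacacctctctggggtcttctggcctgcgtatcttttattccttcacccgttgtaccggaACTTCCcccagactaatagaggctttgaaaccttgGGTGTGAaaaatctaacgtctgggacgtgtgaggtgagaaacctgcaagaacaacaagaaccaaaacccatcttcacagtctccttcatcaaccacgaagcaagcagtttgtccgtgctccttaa
Gzma chr13:113100932-113101231 (- strand): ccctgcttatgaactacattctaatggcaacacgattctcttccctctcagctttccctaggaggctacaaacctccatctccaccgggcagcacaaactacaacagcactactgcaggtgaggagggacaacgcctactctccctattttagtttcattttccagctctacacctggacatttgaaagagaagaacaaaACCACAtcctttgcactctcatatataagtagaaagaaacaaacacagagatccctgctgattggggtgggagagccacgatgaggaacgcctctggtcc
Eomes chr9:118477939-118478238 (+ strand): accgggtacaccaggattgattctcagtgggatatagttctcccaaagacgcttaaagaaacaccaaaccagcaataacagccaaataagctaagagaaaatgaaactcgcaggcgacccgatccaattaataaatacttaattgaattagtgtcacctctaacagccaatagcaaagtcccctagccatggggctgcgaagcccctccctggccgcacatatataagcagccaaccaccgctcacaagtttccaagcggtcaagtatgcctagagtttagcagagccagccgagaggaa
In Nkg7 the T-box letters begin 13 bases before the start and the RUNX letters, on the opposite strand, 83 bases before it. In Gzmk the T-box letters begin 75 bases before the start and the ETS letters, on the opposite strand, 110 bases before it. In Gzma the RUNX letters, on the opposite strand, begin 50 bases before the start. Genes with the T-box letters thus include Nkg7, which passed, and Gzmk (0.42) and Gzmm (-0.12), which did not. These letters are those of the reference strain, and the sequences of AKR/J, DBA/2J and FVB/NJ were not used here.

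Genes that store, activate or release granule contents were counted beside the share of all genes. Of 12 measured, 1 was higher in AKR/J F1 spleens, 0 were lower and 11 did not pass, with a median difference of 0.15, beside -0.01 over the main probe sets of 18193 genes, of which 6.29% passed as higher and 6.17% as lower in AKR/J F1 spleens. The 1 that passed was Lyst, the lysosomal trafficking regulator whose loss gives giant granules and poor NK killing. Lyst read 9.13, 9.26 and 9.40 in AKR/J F1 spleens, against 8.65, 8.61 and 8.55 in DBA/2J F1 spleens, a difference of 0.65 ± 0.09 (limma adjusted p = 0.00850). It also passed with any 1 spleen left out. Srgn, the proteoglycan core that packs granzymes, differed by 0.09, and Rab27a, a small GTPase of granule docking, by 0.41 (adjusted p = 0.0616); neither passed. The count in this list was 3 without DBA/2J F1 replicate 1, after median centring and with trended and robust eBayes. It was 4 with array weights, 2 with dim probe sets left out and 1 in the other refits. Of all probe sets 10.9% passed after median centring, 11.3% in the trended fit and 14.6% with array weights.

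Among 4 granzyme inhibitors 0 passed in limma, and 3 had an unadjusted p under 0.05. Of the main probe sets of all genes 12.5% passed in either direction and 35.1% had an unadjusted p under 0.05. Serpinb9, the inhibitor of granzyme B, differed by 0.32 (limma adjusted p = 0.116), and Serpinb9b by -0.23 (adjusted p = 0.105). Of 14 related granule proteases 1 passed, Mcpt2, a mast cell chymase, which was lower in AKR/J F1 spleens: 3.62, 3.99 and 3.41, against 5.47, 5.14 and 5.50 in DBA/2J F1 spleens (-1.70 ± 0.16, limma adjusted p = 0.00173). The granzyme B paralogs Gzmc to Gzmg and Gzmn read between 1.96 and 3.18 in all 6 spleens. Of 10 death ligands and cytokines 0 passed in limma and 1 had an unadjusted p under 0.05. They include Fasl, which triggers the Fas death receptor (0.28 ± 0.41, adjusted p = 0.672), and Tnfsf10, which encodes TRAIL (0.31, adjusted p = 0.0679).

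Of 20 measured receptors and factors upstream of Eomes, Tbx21 or the effector genes, 3 were higher in AKR/J F1 spleens, 0 lower and 17 did not pass, with a median difference of 0.12. Over the main probe sets of all genes 6.29% passed as higher and 6.17% as lower. The 3 were Tox, a nuclear factor needed for NK development (0.69 ± 0.10, limma adjusted p = 0.00823), Jak3, the kinase of the common gamma chain receptors (0.48 ± 0.09, adjusted p = 0.0178), and Stat4, the transducer of interleukin-12 signals (0.47 ± 0.10, adjusted p = 0.0272). Tox read 6.11, 6.14 and 5.93 in AKR/J F1 spleens, against 5.24, 5.47 and 5.40 in DBA/2J F1 spleens. Tox passed with any 1 spleen left out, whereas Jak3 and Stat4 passed only without DBA/2J F1 replicate 1. The cytokine gene Il15, on which NK cells depend, differed by 0.04, and Il2rb, a chain of its receptor, by 0.30 (adjusted p = 0.0689); neither passed.

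NK surface receptors and adapters were likewise not uniform. Of 17 measured, 2 were higher in AKR/J F1 spleens, 0 lower and 15 did not pass, with a median difference of 0.20. Among the main probe sets of all genes 6.29% passed as higher and 6.17% as lower. Klrd1, which encodes CD94 and is also carried by CD8 T cells, read 8.36, 8.15 and 8.28 in AKR/J F1 spleens, against 7.38, 7.42 and 7.09 in DBA/2J F1 spleens (0.97 ± 0.11, limma adjusted p = 0.00393). Txk, a kinase of T and NK cells, differed by 0.54 ± 0.12 (adjusted p = 0.0314) and passed only without DBA/2J F1 replicate 1 when 1 spleen was left out. The number called was 1 or 2 in those fits, and Klrd1 passed in all 6. The per-spleen mean of the 17 genes was 6.40 to 6.45 in AKR/J F1 spleens and 6.18 to 6.29 in DBA/2J F1 spleens. Klrb1c, which encodes NK1.1, had no probe set with 1 symbol here.

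**Figure D5:**
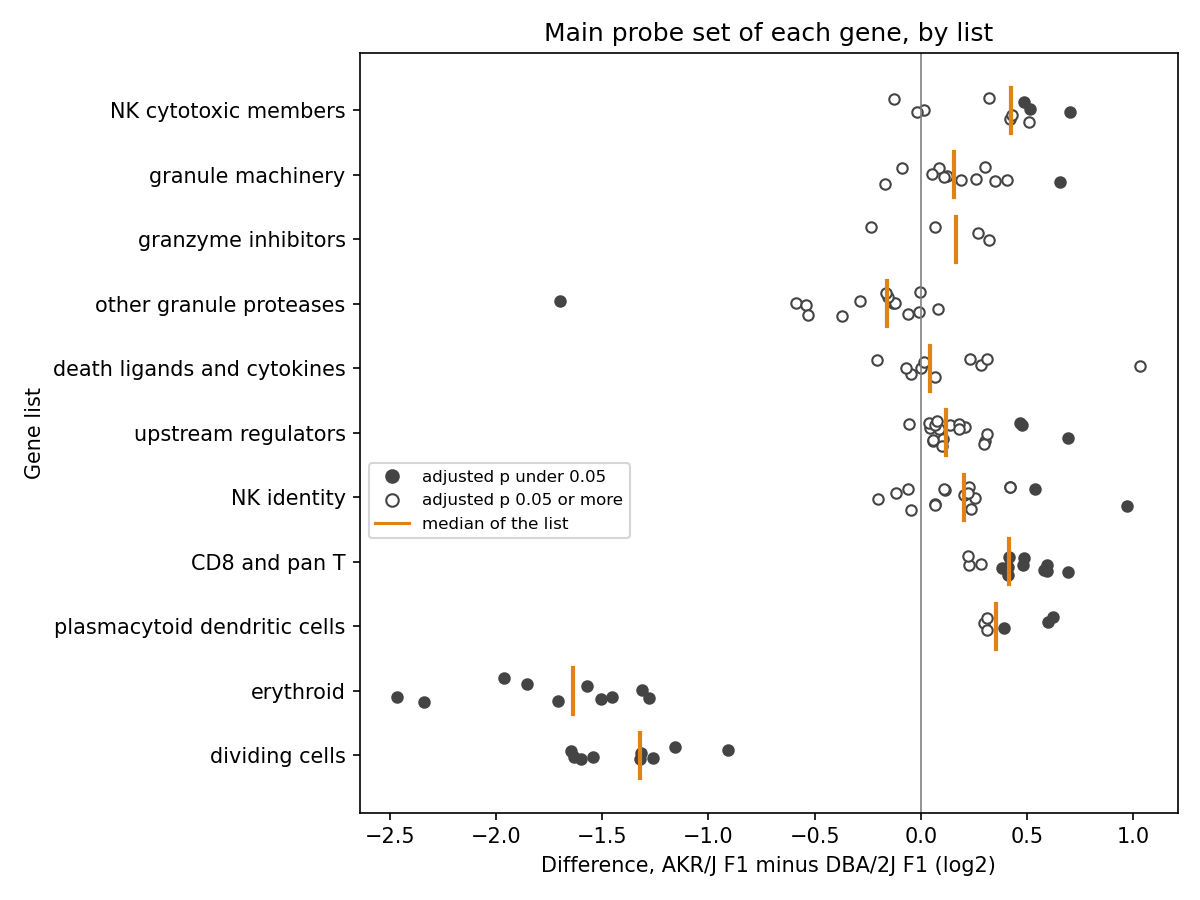
Difference of the main probe set of each gene (AKR/J F1 minus DBA/2J F1, log2, x axis) in the 10 cytotoxic genes (top row) and in related or cell type lists; filled points have an adjusted p under 0.05 and orange bars are list medians. The median is 0.42 for the 10 genes, 0.20 for NK identity genes, 0.41 for T cell genes and -1.64 for erythroid genes.

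Markers of some other cells moved with the crosses in the same samples. Over the main probe sets of all genes 6.29% passed as higher in AKR/J F1 spleens and 6.17% as lower. Of 13 genes of T cells 10 were higher in AKR/J F1 spleens and 0 lower, with a median difference of 0.41 and a per-spleen mean of 8.78 to 8.86 in AKR/J F1 spleens and 8.32 to 8.40 in DBA/2J F1 spleens. The CD8 chain gene Cd8a read 8.06, 8.04 and 8.04 in AKR/J F1 spleens, against 7.46, 7.49 and 7.42 in DBA/2J F1 spleens (0.59 ± 0.07, limma adjusted p = 0.00523). A part of the CD8 T cells transcribe Nkg7, Ctsw, Eomes and Tbx21, but also the granzyme genes and Prf1, which did not pass. The other CD8 chain gene Cd8b1 differed by 0.59, the receptor complex genes Cd3g and Cd247 by 0.58 and 0.48, and the surface receptor genes Cd5 and Cd6 by 0.69 and 0.48. With 1 spleen left out, 5 to 10 of the 13 passed, 5 of them without any 1 spleen of the AKR/J F1 group or without DBA/2J F1 replicate 3. Plasmacytoid dendritic cell genes, whose cells can carry Gzmb, had 3 of 6 higher in AKR/J F1 spleens, with per-spleen means of 8.67 to 8.79 in AKR/J F1 spleens and 8.21 to 8.37 in DBA/2J F1 spleens, and 1 to 3 passed with 1 spleen left out. The 3 were Bst2 (0.62), Siglech (0.60) and Ccr9 (0.39). In the other direction, all 10 erythroid genes measured were lower in AKR/J F1 spleens, with per-spleen means of 7.99 to 8.63 in AKR/J F1 spleens and 9.62 to 10.41 in DBA/2J F1 spleens. Alas2, which encodes an erythroid enzyme that makes heme, differed by -1.31, and Epb42, Rhag, Rhd, Slc4a1 and Epor by -2.46 (Rhd) to -1.28 (Epor). Also lower were all 9 genes of dividing cells, at 7.26 to 7.85 in AKR/J F1 spleens and 8.36 to 9.29 in DBA/2J F1 spleens, of which 2 to 9 passed with 1 spleen left out, against 7 to 10 of the erythroid genes. The proliferation marker gene Mki67 differed by -1.60, and Ccnb2, Kif11, Ccna2, Birc5 and Cdk1 by -1.65 (Ccnb2) to -1.32 (Cdk1). Of the CD4 and regulatory T cell genes 1 of 6 was higher in AKR/J F1 spleens, Cd4 (0.37, limma adjusted p = 0.0498). Of these 6 differences 3 were positive and 3 negative, with a median of 0.05. The lowest was that of Cd40lg, which did not pass (-0.37, limma adjusted p = 0.0964). Of the B cell genes 2 of 6 were higher, Cd79a (0.36) and Cr2 (0.45). With 1 spleen left out, the CD4 and B cell counts were both 0 in 5 of the 6 fits, and without DBA/2J F1 replicate 1 they were 1 and 4. In limma 0 of 9 neutrophil and mast cell genes and 0 of 8 pancreatic acinar genes passed, with 0 of either list at an unadjusted p under 0.05, beside 35.1% of the main probe sets of all genes. Among them S100a8 differed by -0.17 and Mpo by -0.51, and the acinar genes Cela1 and Cela3b by 1.96 and 3.15. The 8 acinar genes still averaged more in every AKR/J F1 spleen (13.92 to 13.97) than in any DBA/2J F1 spleen (6.37 to 13.77). Their median difference was 2.85, and 0.31 without DBA/2J F1 replicate 3, the spleen that widens the spread of its cross. None of these markers was listed at 0, and their part in the differences of Nkg7, Ctsw, Eomes and Tbx21 was not tested.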

How the data were processed

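Spleen RNA of 6 F1 females was labelled with biotin and hybridised to Affymetrix arrays, per the labels' protocols. The authors deposited log2 values, which they brought to a common range across arrays; RMA and MAS5 are named without role in the submitters' processing notes, and the sources used here do not say which of them made the values. No counts or detection calls are included, and precision is limited by the number of arrays. Groups and replicate numbers were taken from sample titles.

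Of 45101 probe sets 64 controls were left out, leaving 45037, of which 34945 had 1 gene symbol, 932 several and 9160 none listed here. All 12 member probe sets matched the same symbol in RefSeq by gene identifier, and 0 probe sets with several symbols held a member. Differences were fitted with limma 3.58.1 (lmFit, eBayes, R 4.3.3) on all 6 arrays without covariates, with Benjamini-Hochberg adjustment over all 45037 probe sets and a threshold of 0.05. Other genes are represented by their brightest probe set with 1 symbol. Every member probe set was described, and from each of 14 lists the first measured gene and up to 6 called genes were named, or the gene with the smallest p; Rab27a, Serpinb9, Il2rb and further examples were chosen after their values were seen. The members and lists were chosen with earlier results of these data known.

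The fit was checked on simulated data made for this contrast: of 50 changed probe sets at each size, 12% were called at a log2 change of 0.5, 78% at 1 and 98% at 2, among 45037. Few probe sets were changed there, whereas 4688 passed in the data. The adjustment was therefore stricter in the simulation, and these shares do not carry over to the data. Sequence variants of the parents under a probe could alter its signal, which was not tested. Samples sharing a replicate number came from different animals, and no pairing was assumed. Their deviations from the cross means correlated at 0.20, 0.11 and 0.05, against -0.16 to 0.06 between different numbers. Whether a replicate number marks a shared effect was not tested. Alternatives were median centring, quantile normalization, dropping the probe sets under the 40th percentile of mean level, trended and robust eBayes (statmod 1.5.0), array weights, a replicate block, the pancreatic acinar mean as a covariate, leaving out each spleen, and averaging a gene's probe sets. A pseudocount alternative applied to linear values only and was not run.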

Additional observations from a re-analysis of the deposited data

How the results depend on the processing

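The number of the 12 probe sets past the threshold was 3, and 3 again after median centring, with dim probe sets left out, with trended and robust eBayes and with array weights. It was 1 after quantile normalization and 1 with the pancreatic acinar mean as a covariate, and 1 to 4 with 1 spleen left out. The acinar mean was 13.42 to 13.97 in 5 arrays and 6.37 in DBA/2J F1 replicate 3, so that this covariate mainly sets that spleen apart. With it Nkg7 and Ctsw differed by 0.59 and 0.37, close to the 0.60 and 0.38 without that spleen. Nkg7 was called in all 13 alternatives (0.59 to 0.76), Ctsw in 5 and the brighter Eomes probe set in 6. With the replicate number as a block 4 passed, Tbx21 being added (adjusted p = 0.0264), and 4658 probe sets passed over the array; DBA/2J F1 replicate 3 did not correlate best with its own number. Over the array 4688 probe sets passed, 876 with the acinar covariate and 1001 to 4793 with 1 spleen left out; the share of calls higher in AKR/J F1 spleens was 49.4% as deposited and 61.9% after median centring. Effector minus factor was -0.41 to 0.017 with 1 spleen left out. Uncalled signs turned for Ncr1 (0.012 after median centring, 0.059 with array weights, -0.11 to 0.11 with 1 spleen left out) and Gzma (-0.054 after quantile normalization, -0.048 with the acinar covariate, -0.057 to 0.12 with 1 spleen left out). The cause of these changes was not tested, and the fits that leave one out also hold fewer arrays. Effector minus factor has no value of its own under the dim filter or the trended fit. Whether a difference near 0.5 passed depended on the spread of its probe set. Cd4 passed at 0.37 (limma adjusted p = 0.0498), whereas Tbx21 did not at 0.51 (limma adjusted p = 0.122). Signals near background understate a difference.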

Other observations

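Several activation genes varied more among spleens of a cross than between the crosses; they were picked after their values were seen and carry no test. AKR/J F1 replicate 3 had the highest level of Gzmb, Gzmk and both Prf1 probe sets, and its Ifng signal, from the gene of the cytokine interferon gamma, was 5.77, beside 3.39 and 3.47 in the other AKR/J F1 spleens and 2.91 to 3.49 in DBA/2J F1 spleens. Fasl read 5.50, 6.65 and 7.18 in AKR/J F1 spleens and 5.56, 6.38 and 6.54 in DBA/2J F1 spleens. Ctla4, an inhibitory receptor of activated T cells, read 5.38, 6.48 and 6.86 in AKR/J F1 spleens and 5.39, 6.58 and 6.94 in DBA/2J F1 spleens. For both genes the level rose from replicate 1 to replicate 3 in each cross, and Ctla4 levels were close between spleens of the same number. Whether the replicate number marks a shared effect was not tested. DBA/2J F1 replicate 3, the spleen with little acinar signal, was the lowest of all 6 spleens in 6 of the 12 probe sets.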
